A study of Homo sapiens with 24 samples.

Results

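The 9 genes TGFB1, TGFB2, TGFB3, TGFBR1, TGFBR2, TGFBR3, TGFBI, SMAD7 and INHBA, taken by symbol from a table of 19475 genes, were followed in 24 RNA-seq libraries of 4 human cancer cell lines. A549 and H1299 come from lung carcinomas, K562 from a chronic myeloid leukaemia and THP-1 from an acute monocytic leukaemia. Each line had 3 libraries labelled control and 3 labelled CBX7 knockdown, and CBX7 is a chromodomain protein of Polycomb repressive complex 1. Per the labels' protocol, cells of both arms carried a lentivirus, with a short hairpin RNA against CBX7 in one arm and a control hairpin in the other. The treatment label names a short interfering RNA against CBX7 for every library, controls included. No other drug, allele or time point is given, and whether the replicates came from separate cultures or clones is not stated, so the p-values cover only how far these libraries vary, and that variation may be technical.

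Transforming growth factor beta is secreted in a latent form and, once released, binds a type II receptor kinase that phosphorylates a type I receptor kinase. The type I receptor phosphorylates SMAD2 and SMAD3, which join SMAD4 and bind DNA near target genes. In epithelial cells the pathway is known for growth arrest and for mesenchymal and matrix gene expression, and in blood cells for restraint of growth and control of differentiation. TGFB1, TGFB2 and TGFB3 encode the ligands, TGFBR2 the type II receptor, TGFBR1 the type I receptor and TGFBR3 the co-receptor betaglycan, which presents ligand. TGFBI encodes a matrix protein named for its induction by the pathway, SMAD7 an inhibitory SMAD that feeds back on the receptors, and INHBA the subunit of activin A, a related ligand.

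Total estimated counts per library ran from 71087023 to 132499841, and CBX7 went against the labels in every line. The libraries labelled knockdown held 8.48-fold (A549), 12.3-fold (H1299), 2.85-fold (K562) and 2.30-fold (THP-1) the CBX7 RNA of their controls. In what follows a gene is called higher or lower by its level in the libraries labelled knockdown. The 15 erythroid markers all reached 1 CPM (counts scaled to library size) in K562, and 16 or 17 of 17 monocyte markers did so in THP-1. Of 12 lung epithelial markers, 8 reached 1 CPM in A549 and 4 or 5 in H1299, and the secretoglobin gene SCGB1A1 was at 0 in the controls of both.

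Promoter sequences are shown for 4 of the 9 members, as examples and not as a ranking. TGFBI passed the test in all 4 lines, INHBA had the largest fold change in A549, TGFB2 in THP-1, and TGFBR2 moved in H1299 and K562. All 9 members matched the RefSeq promoter table (GRCh38.p14), with 20 promoters between them. Each sequence runs 5′ to 3′, most of it before the transcription start and the last part after it. Capitals mark a match to a motif on either strand. TGFBR3, which changed more than TGFBR2 in H1299, and the first TGFBR2 promoter hold no match and are not shown. Matches are thus more common among the sequences shown than among all 20 promoters.
TGFBI, chr5:136028738-136029037, plus strand: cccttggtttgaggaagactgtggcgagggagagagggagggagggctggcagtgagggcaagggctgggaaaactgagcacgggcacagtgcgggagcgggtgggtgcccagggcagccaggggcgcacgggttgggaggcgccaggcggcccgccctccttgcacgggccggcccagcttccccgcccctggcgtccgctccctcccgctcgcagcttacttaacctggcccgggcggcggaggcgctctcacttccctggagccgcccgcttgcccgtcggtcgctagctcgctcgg
TGFB2, chr1:218345086-218345385, plus strand: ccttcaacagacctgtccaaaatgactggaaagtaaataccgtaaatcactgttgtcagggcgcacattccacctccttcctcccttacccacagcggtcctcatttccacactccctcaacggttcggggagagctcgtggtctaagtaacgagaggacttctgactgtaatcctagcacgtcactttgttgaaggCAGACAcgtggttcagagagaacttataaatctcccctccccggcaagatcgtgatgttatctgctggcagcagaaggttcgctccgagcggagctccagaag
TGFBR2, second promoter, chr3:30606351-30606650, plus strand: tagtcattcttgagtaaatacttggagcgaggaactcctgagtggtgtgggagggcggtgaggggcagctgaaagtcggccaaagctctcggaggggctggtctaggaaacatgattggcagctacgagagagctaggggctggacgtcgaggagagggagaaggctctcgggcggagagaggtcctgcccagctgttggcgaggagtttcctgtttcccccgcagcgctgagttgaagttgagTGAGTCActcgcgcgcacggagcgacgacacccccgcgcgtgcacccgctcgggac
INHBA, chr7:41703041-41703340, minus strand: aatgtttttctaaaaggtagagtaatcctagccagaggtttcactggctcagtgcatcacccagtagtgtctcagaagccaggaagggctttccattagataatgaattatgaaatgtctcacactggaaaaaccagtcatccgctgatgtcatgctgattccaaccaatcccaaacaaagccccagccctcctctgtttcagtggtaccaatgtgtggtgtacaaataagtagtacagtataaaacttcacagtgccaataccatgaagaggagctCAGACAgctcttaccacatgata

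All motifs were searched on both strands, and they can overlap each other only at their end bases. The motif CAGACA, which holds the AGAC core that SMAD proteins bind, occurs in 16.88% of all 35116 promoters of this length in the table. It was found in 4 member promoters, at base -53 of TGFB2 and base 27 of INHBA, counted from the start as 0, and in promoters 3 and 4 of the 8 listed for TGFBR1. The AP-1 site TGACTCA occurs in 4.949% of promoters and was found at base -6 of the second TGFBR2 promoter, where it is read on the opposite strand. The SMAD palindrome GTCTAGAC occurs in 0.2022% of promoters and in none of the 20. These matches describe the letters in the windows and do not show that a factor is bound.

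In the control libraries each line had its own set of these genes. Levels of 1 gene between lines are CPM on library sizes scaled over all 24 libraries (mean ± SD, n = 3). Lines were compared within 1 edgeR quasi-likelihood model of the 24 libraries, with Benjamini-Hochberg adjustment over 16797 genes. Of the 9 members, 9 differed between A549 and H1299, where 75.0% of all genes did, and 7 between A549 and K562 (77.0% of all genes). Between A549 and THP-1 9 members differed (77.0% of all genes), and between H1299 and K562 8 (75.7%). Between H1299 and THP-1 6 members differed (78.1%), and between K562 and THP-1 7 (74.1%). These counts lie near the shares of all genes.

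TGFB1 was the ligand with the highest level in every line, on the TPM scale that allows for transcript length. In the controls it stood at 308.1 TPM in H1299, 189.9 in K562, 120.4 in A549 and 87.1 in THP-1. Between lines on the CPM scale the order was H1299 at 421.0 ± 3.57, K562 at 224.7 ± 9.96, A549 at 139.7 ± 3.48 and THP-1 at 107.8 ± 11.4, and each step passed the test. TGFB2 was a ligand of the lung lines. It was 170.7 ± 1.97 CPM in A549 and 48.9 ± 3.67 in H1299, but 0.506 ± 0.0701 in K562 and 0.434 ± 0.148 in THP-1, and these last 2 did not pass the test (adjusted p = 0.172). Without THP-1 control replicate 1 they did (0.0136). TGFB3 was highest in H1299 at 8.48 ± 2.81 CPM, then THP-1 at 3.43 ± 0.218, while A549 at 1.69 ± 0.355 and K562 at 1.59 ± 0.140 were not told apart (adjusted p = 0.713).

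The receptors followed other orders. TGFBR1 was 165.0 ± 8.61 CPM in K562, 152.3 ± 1.09 in A549, 83.5 ± 3.91 in THP-1 and 32.3 ± 1.38 in H1299. The step from K562 to A549 was small (adjusted p = 0.0321) and was lost without any 1 of 5 control libraries, at 0.0789, 0.0674 and 0.0657 without A549 replicates 1, 2 and 3, and at 0.230 and 0.0529 without K562 replicates 1 and 2. TGFBR2 spanned the widest range of the receptors, with 403.8 ± 7.34 CPM in A549, 46.9 ± 3.12 in H1299, 30.2 ± 0.707 in THP-1 and 0.511 ± 0.0396 in K562. K562 thus held much TGFBR1 RNA beside almost no TGFBR2 RNA, 58.7 against 0.250 TPM. TGFBR3 was 57.9 ± 2.34 CPM in K562, 31.2 ± 0.814 in H1299, 24.7 ± 4.63 in A549 and 9.89 ± 0.498 in THP-1, and each step passed the test.

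Among the targets and feedback genes, TGFBI was the most abundant member in A549, at 1505.7 ± 20.8 CPM. It was 379.1 ± 1.49 in H1299 and 290.4 ± 8.495 in THP-1, a step that did not pass (adjusted p = 0.0975), and 0.277 ± 0.0475 in K562. That step passed on FPKM (0.000135 to 0.0393). On the TPM scale TGFBI stood above TGFB1 in A549 (1269 against 120.4) and THP-1 (229.3 against 87.1), and below it in H1299 (271.2 against 308.1). SMAD7 was 17.6 ± 5.92 CPM in A549, 13.6 ± 0.145 in H1299, 11.9 ± 0.892 in THP-1 and 4.13 ± 0.304 in K562. The step from H1299 to THP-1 did not pass (adjusted p = 0.268). The difference between A549 and H1299 (0.0485) was lost without A549 control replicate 2 (0.131) or 3 (0.417) and without H1299 control replicate 1 (0.0741), 2 (0.0901) or 3 (0.0872). That between A549 and THP-1 (0.00391) was lost without A549 control replicate 3 (0.0510). INHBA was near the limit of detection, with 8, 9 and 12 estimated counts in the A549 controls, 0, 9 and 5 in K562 and 0 in all 3 controls of H1299 and of THP-1. A count of 0 allows up to 3 counts, or 0.0226 to 0.0422 CPM by library, for counting error only. The differences of INHBA between A549 and H1299 (0.0234) and between A549 and THP-1 (0.0342) rest on these few counts, and the first was lost without any 1 H1299 control (0.0524 to 0.0551). The second was lost without any 1 THP-1 control or A549 control replicate 3 (0.0580 to 0.0768). INHBA between H1299 and K562 (0.0543) passed without K562 control replicate 1 (0.0331).

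**Figure D1:**
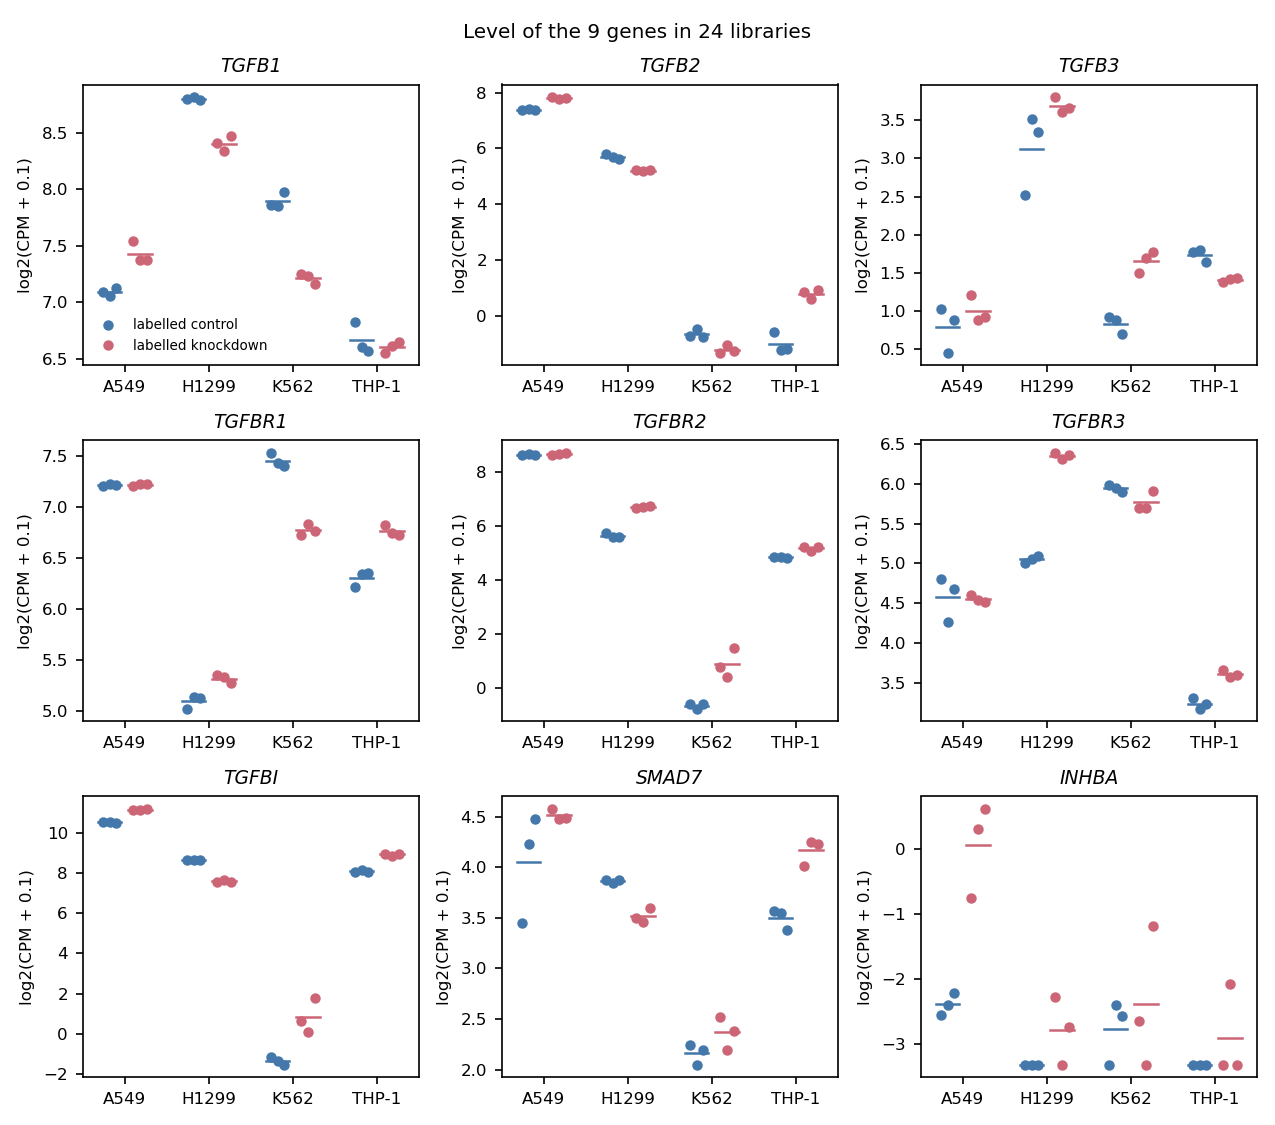
Level of each of the 9 genes as log2(CPM + 0.1), with CPM on library sizes scaled within a line, in each of 24 libraries, grouped by line. Blue points are libraries labelled control and red points libraries labelled knockdown, and short lines are means of 3. TGFBR2 and TGFBI are near the bottom of their axes in K562, and INHBA is near its floor outside the A549 libraries labelled knockdown.

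Within each line the 2 arms were then compared in the 6 libraries of that line with the edgeR quasi-likelihood test, adjusted over all genes tested. CPM values from here on are scaled within the line. In A549 the ligands TGFB1 and TGFB2, the matrix gene TGFBI and the activin gene INHBA were higher, and none of the 3 receptors passed. This was 4 of 9 members, all higher, where 55.6% of the 14980 genes tested passed, 27.2% higher and 28.4% lower. Of these members, INHBA had enough counts to be tested only through its libraries labelled knockdown.

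TGFBI in A549 was 1485, 1477 and 1447 CPM in the controls and 2271, 2283 and 2314 in the libraries labelled knockdown, so the groups were far apart and each was tight. Its log2 fold change was 0.64 ± 0.02 (SE; adjusted p = 3.39e-11). TGFB2 was 165.3, 169.1 and 165.5 CPM against 227.5, 218.0 and 221.5, again without overlap (0.42 ± 0.03; adjusted p = 1.21e-07). TGFB1 was 136.5, 132.9 and 139.5 CPM against 185.9, 166.1 and 165.4, with replicate 1 the highest of its group (0.34 ± 0.04; adjusted p = 5.23e-05). The fold changes of these 3 genes were thus between 1.265 and 1.558. Of all genes tested in A549, 63.7% had groups that did not overlap, in either direction.

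INHBA in A549 was 0.0701, 0.0903 and 0.115 CPM in the controls and 0.493, 1.15 and 1.44 in the libraries labelled knockdown, from 36, 108 and 118 estimated counts. All 3 lay above all controls, and replicate 1 was well under the other 2 (3.47 ± 0.53; adjusted p = 0.000124). The controls held 8, 9 and 12 estimated counts, so INHBA entered the test only through the libraries labelled knockdown. The call was lost with all 24 libraries in the fit (0.0959). SMAD7 was 10.8, 18.7 and 22.1 CPM against 23.7, 22.1 and 22.4, with control replicate 1 the lowest (0.40 ± 0.29; adjusted p = 0.315). With all 24 libraries in the fit it passed (0.0434). TGFBR1 had 148.7 CPM in both arms (log2 fold change 0.00 ± 0.03; adjusted p = 0.987). TGFBR2 had 394.2 and 402.6 CPM (0.336), and TGFB3 1.65 and 1.92 CPM (0.453). On TPM both TGFBR1 (0.09; 0.0444) and TGFBR2 (0.12; 0.00707) were called higher, and TGFBR2 also on FPKM (0.0111 to 0.0149), all by small steps. TGFBR3 had 24.1 and 23.4 CPM (adjusted p = 0.789), and without control replicate 2, which was the lowest at 19.1 CPM, it was called lower (-0.19; adjusted p = 0.0360).

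Markers of fibroblasts moved with the labels in A549. Of the 12 markers 11 were tested and all 11 were higher, where 27.2% of all genes were higher and 28.4% lower. COL1A2, DCN and POSTN, at 0 to 9 estimated counts in the controls, entered the test only through the libraries labelled knockdown. They could thus be called in 1 direction only. The summed level of the 12 was 65.4 to 66.8 CPM in the controls and 158.6, 415.2 and 455.7 CPM in knockdown replicates 1, 2 and 3. The marker genes POSTN and FAP were at 0 in all 3 controls. INHBA followed the same order of libraries. TGFB1 and TGFB2 were highest in replicate 1, and TGFBI differed little among the 3. The lung epithelial marker sum was 10323 to 10478 CPM in the A549 controls and 5797 to 6074 in the libraries labelled knockdown, with 4 of 10 tested higher and 3 lower. The part of either marker set in the member differences of A549 was not tested. In bulk RNA, more cells of a type and more RNA per cell cannot be told apart.

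**Figure D2:**
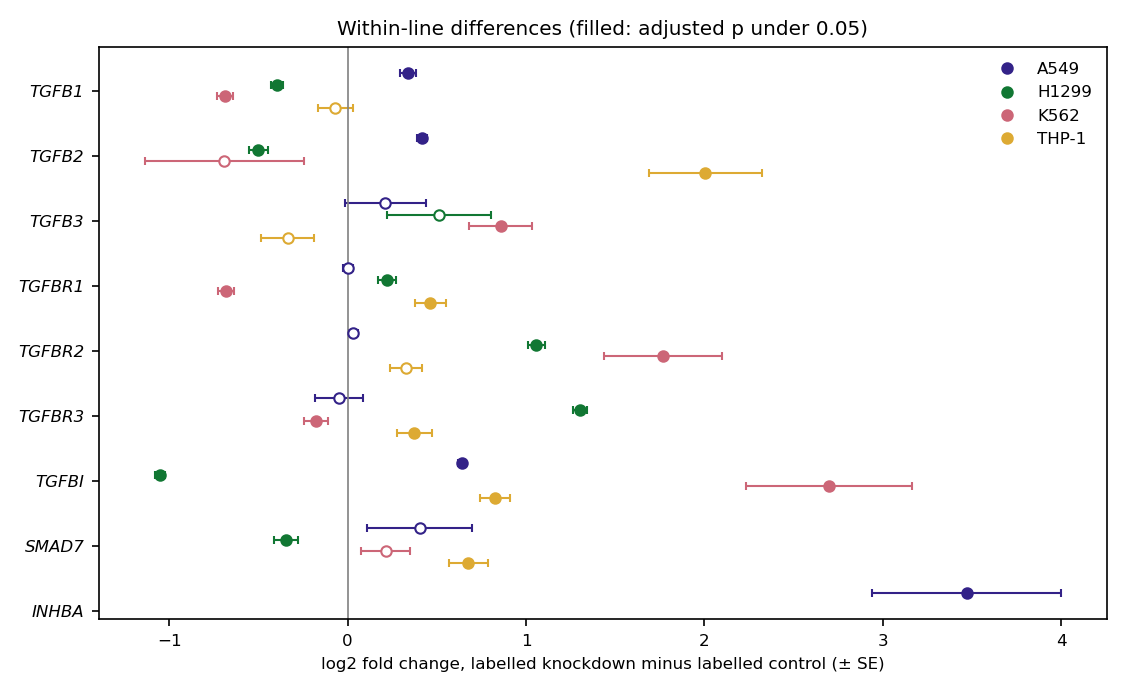
Log2 fold change of each member in each line, labelled knockdown minus labelled control, with bars of 1 SE. Filled points passed an adjusted p under 0.05, and genes not tested in a line have no point. Points of 1 gene lie on both sides of 0 for TGFB1, TGFB2, TGFB3, TGFBR1, TGFBR3, TGFBI and SMAD7, although on the TPM scale TGFB1 and SMAD7 in H1299 are just above 0.

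In H1299 all 3 receptors were higher while the ligands TGFB1 and TGFB2, the target TGFBI and the feedback gene SMAD7 were lower on counts, with TGFB1 and SMAD7 just above 0 on TPM. That made 7 of 8 members tested, 3 higher and 4 lower, where 68.9% of 14621 genes passed, 33.4% higher and 35.5% lower. INHBA had 0 counts in the controls and 9, 0 and 5 in the libraries labelled knockdown, and was not tested.

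TGFBR3 in H1299 was 32.1, 33.1 and 33.9 CPM in the controls and 83.2, 79.5 and 82.1 in the libraries labelled knockdown (1.30 ± 0.04; adjusted p = 1.36e-10). TGFBR2 was 53.5, 47.8 and 48.0 CPM against 101.0, 103.3 and 106.4 (1.06 ± 0.05; adjusted p = 2.50e-09). Betaglycan and the type II receptor were therefore more than doubled. Neither pair of groups overlapped, nor did those of 74.5% of all genes tested in H1299. TGFBR1 was 32.5, 35.3 and 35.0 CPM against 40.8, 40.3 and 38.6, a smaller step (0.22 ± 0.05; adjusted p = 0.00183).

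TGFBI in H1299 was 401.1, 400.8 and 404.5 CPM in the controls and 189.2, 201.9 and 190.9 in the libraries labelled knockdown, the opposite direction to A549 (-1.05 ± 0.03; adjusted p = 9.18e-11). TGFB1 was 446.4, 450.0 and 443.2 CPM against 339.1, 323.0 and 354.6 (-0.40 ± 0.03; adjusted p = 4.77e-07; 0.05 on TPM). TGFB2 was 56.0, 51.1 and 48.5 CPM against 37.0, 36.2 and 36.9 (-0.50 ± 0.05; adjusted p = 4.28e-06). On this CPM scale, though on TPM for TGFBI alone, these 3 genes were lower in every library labelled knockdown than in any control. The groups of 74.5% of all genes tested did not overlap, in either direction. SMAD7 was 14.6, 14.3 and 14.6 CPM against 11.2, 10.9 and 12.05 (-0.35 ± 0.07; adjusted p = 0.000797), and its call was lost with all 24 libraries in 1 fit (0.134) and its sign turned on TPM (0.10). TGFB3 was 5.62, 11.3 and 10.03 CPM against 13.8, 12.04 and 12.6 and did not pass (adjusted p = 0.188). Without the low control replicate 1 it was called higher (0.27; adjusted p = 0.0304), as it was in 5 other settings, DESeq2 (0.0136) and TPM (0.00975) among them.

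H1299 directions depend on the scale. On TPM the median of all genes moved by 0.30 on the log2 scale, and TGFB1 (0.05; adjusted p = 0.203) and SMAD7 (0.10; 0.137) turned to the other side of 0. TGFB2 (-0.04; 0.529) was no longer called. Relative to that median they were at -0.25, -0.20 and -0.34, while TGFBI was at -0.90, TGFBR1 at 0.32, TGFBR2 at 1.17 and TGFBR3 at 1.37.

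Log2 fold changes in H1299 also followed transcript length. Over 14425 genes with a length, Spearman's rho was 0.568 across genes, which are not independent, against 0.0932 in A549, 0.0067 in K562 and -0.0886 in THP-1. With the genes in 5 equal groups by length, the median log2 fold change ran from -0.54 in group 1, the shortest, to -0.27, -0.02, 0.29 and 0.66 in groups 2 to 5. TGFB1 and TGFBI, with longest coding transcripts of 2769 and 2804 bases, were in group 2 and TGFBR1 and TGFBR3, with 6516 and 6465 bases, in group 5. On counts TGFB1 and TGFBI were below the median of group 2. TGFBR1, although called higher, was below the median of group 5, and TGFBR3 was above it. TGFBR2, with 4621 bases, was above the median of group 4, whereas on counts TGFB2 (5053 bases) and SMAD7 (4428 bases) were on the other side of 0 from it. The part of length in these differences was not tested.

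**Figure D3:**
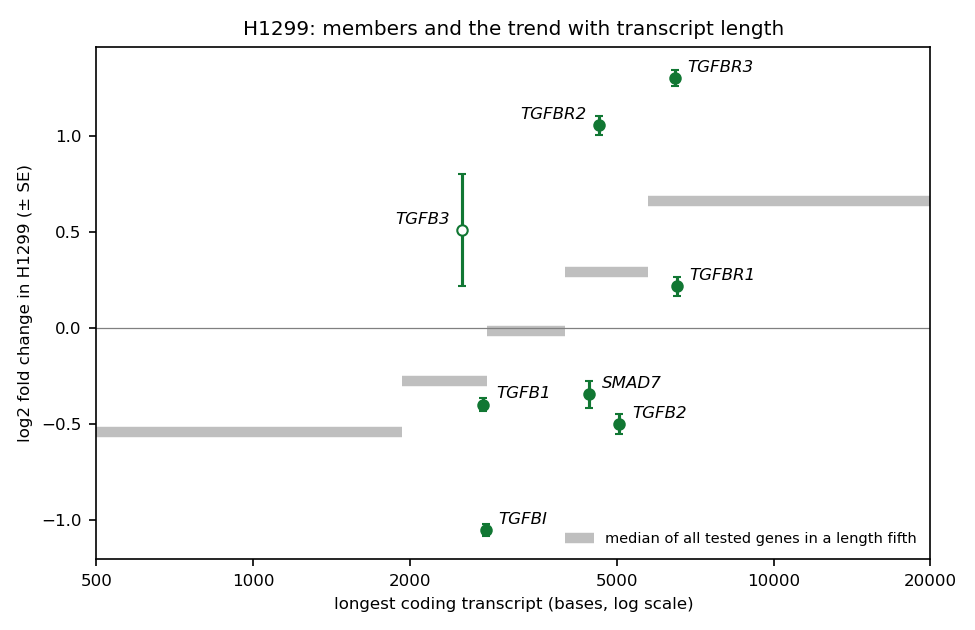
Log2 fold change in H1299 (vertical, ± SE) against the length of the longest coding transcript in bases (log scale) for the 8 members tested. Grey bars are the medians of all tested genes in 5 equal groups by length, from -0.54 to 0.66, and the open point (TGFB3) did not pass the test. On the TPM scale TGFB1 and SMAD7 turn to just above 0.

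Fibroblast markers were also higher in H1299, with 6 of 10 tested higher and 1 lower, where 33.4% of all genes were higher and 35.5% lower. The marker sum was 78.6 to 84.3 CPM in the controls and 225.0 to 243.0 in the libraries labelled knockdown. Nearly all of it was fibrillin 1 (FBN1), at 70.9 to 75.5 and 213.6 to 230.8 CPM, and POSTN was lower. THY1 was at 0 in the controls. COL1A2, COL3A1 and COL6A3, at 0 to 17 estimated counts in the controls, entered the test only through the libraries labelled knockdown. The lung epithelial marker sum was 1523 to 1573 CPM in the controls and 782.8 to 807.5 in the libraries labelled knockdown. Of 8 lung epithelial markers tested 0 were called higher and 2 lower, so the lower sum does not describe the whole set. The part of these shifts in the member differences was not tested.

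In K562 the ligand TGFB1 and the type I receptor TGFBR1 were lower, while TGFB3, TGFBR2 and TGFBI were higher from low levels. With TGFBR3 called lower, this was 6 of 8 members tested, where 56.5% of 13876 genes passed, 28.9% higher and 27.5% lower.

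TGFB1 in K562 was 232.2, 231.2 and 252.4 CPM in the controls and 151.7, 150.2 and 142.9 in the libraries labelled knockdown (-0.69 ± 0.05; adjusted p = 8.80e-07). TGFBR1 was 184.1, 172.0 and 169.4 CPM against 105.6, 114.0 and 108.3 (-0.68 ± 0.05; adjusted p = 9.73e-07). Both genes were at about 0.62 of their control level, without overlap and with little spread. Groups also did not overlap for 65.6% of all genes tested in K562. TGFBR3 was 63.4, 61.6 and 59.3 CPM against 51.7, 51.5 and 60.0, so that its groups overlapped (-0.18 ± 0.07; adjusted p = 0.0449). That call was lost in 12 of 16 other settings, among them without control replicate 1 (0.113), control replicate 2 (0.0992), knockdown replicate 1 (0.137) or knockdown replicate 2 (0.167).

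TGFBI in K562 was 0.340, 0.297 and 0.244 CPM in the controls and 1.47, 0.980 and 3.34 in the libraries labelled knockdown, from 18 to 38 estimated counts against 98 to 275 (2.70 ± 0.47; adjusted p = 0.000725). TGFBR2 was 0.564, 0.495 and 0.569 CPM against 1.62, 1.24 and 2.70 (1.77 ± 0.33; adjusted p = 0.00108). In both genes knockdown replicate 3 was the highest, and the calls held without it at 2.04 (0.00245) and 1.39 (0.00561). TGFB3 was 1.79, 1.74 and 1.53 CPM against 2.73, 3.13 and 3.33, with no single high library (0.86 ± 0.18; adjusted p = 0.00204). TGFB2 (0.538 and 0.332 CPM; adjusted p = 0.213) and SMAD7 (4.38 and 5.08 CPM; 0.209) did not pass, although TGFB2 passed as lower with all 24 libraries in 1 fit (-0.66; 0.00431). INHBA had 5, 0 and 28 estimated counts in the libraries labelled knockdown and was not tested.

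Fibroblast markers in K562 summed to 12.8, 12.6 and 19.6 CPM in the controls and 35.4, 32.5 and 75.9 in the libraries labelled knockdown. Of them 6 of 9 tested were higher, where 28.9% of all genes tested in K562 were higher and 27.5% lower. Knockdown replicate 3, the highest for TGFBI, TGFBR2 and INHBA, was also the highest for the fibroblast markers. Control replicate 3 was the highest control for these markers but the lowest for TGFBI, at 0.244 CPM. TGFBR2 in the controls was 0.564, 0.495 and 0.569 CPM, and INHBA was highest in control replicate 2. FAP was at 0 in the controls and POSTN in the libraries labelled knockdown. PDGFRA and THY1, at 0 to 7 estimated counts in the controls, entered the test only through the libraries labelled knockdown. Of 15 erythroid markers 13 were higher and 1 lower, with a sum of 3158 to 3422 CPM in the controls and 5580 to 5831 in the libraries labelled knockdown. Monocyte markers summed to 243.9 to 254.9 and 136.5 to 141.9 CPM (3 of 11 tested higher, 6 lower), and lung epithelial markers to 761.6 to 834.6 and 531.1 to 554.7 CPM (1 of 8 higher, 4 lower). The part of these marker sets in the member differences was not tested.

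**Figure D4:**
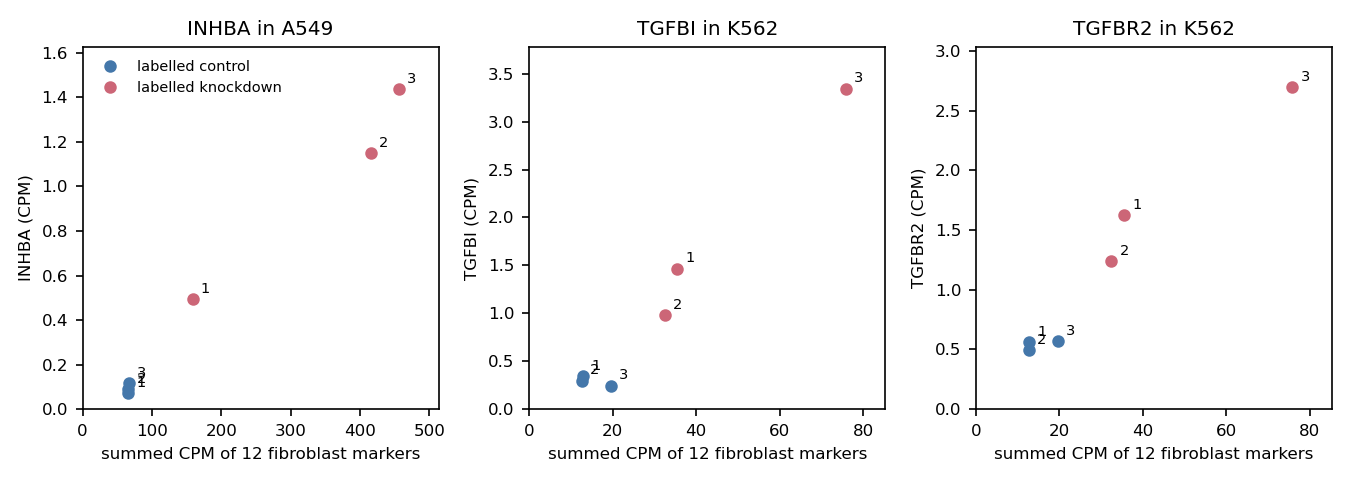
Level of INHBA in A549 and of TGFBI and TGFBR2 in K562 (CPM scaled within the line, vertical) against the summed CPM of 12 fibroblast markers (of total counts, horizontal) in each library. Numbers are replicates. The libraries labelled knockdown that were highest for the markers, replicate 3 in both lines at 455.7 and 75.9 CPM, were also highest for these genes. Among the controls replicate 3 was highest for the markers, for INHBA in A549 and for TGFBR2 in K562, but lowest for TGFBI in K562.

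THP-1 had fewer changed genes than the other lines, 10.2% of 14259, with 6.30% higher and 3.93% lower, yet 5 of 8 members tested passed and all 5 were higher. They were the ligand TGFB2, the receptors TGFBR1 and TGFBR3, the target TGFBI and the feedback gene SMAD7. That count moved when 1 library was left out: it was 3 without control replicate 1, control replicate 2 or knockdown replicate 1, 2 without control replicate 3, 4 without knockdown replicate 3 and 6 without knockdown replicate 2.

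TGFBI in THP-1 was 269.6, 284.2 and 269.6 CPM in the controls and 493.7, 468.9 and 496.5 in the libraries labelled knockdown (0.83 ± 0.08; adjusted p = 0.00122). TGFB2 was 0.568, 0.327 and 0.335 CPM against 1.72, 1.41 and 1.79, from 32 to 46 estimated counts against 138 to 155 (2.00 ± 0.32; adjusted p = 0.00737). Both stayed called without any 1 library. TGFB2 thus moved about 4.01-fold from a level where few counts lay behind it, and TGFBI 1.77-fold from an abundant one. SMAD7 was 11.8, 11.6 and 10.3 CPM against 16.1, 19.0 and 18.6 (0.68 ± 0.11; adjusted p = 0.00828), and its call was lost without control replicate 3 (0.0571).

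TGFBR1 in THP-1 was 74.1, 81.1 and 81.6 CPM against 113.3, 107.5 and 105.8 (0.46 ± 0.09; adjusted p = 0.0138). The call was lost without control replicate 1, 2 or 3 (0.0591, 0.0696 and 0.0616) and without knockdown replicate 1 (0.0606). TGFBR3 was 9.79, 8.95 and 9.31 CPM against 12.5, 11.8 and 12.04 (0.37 ± 0.10; adjusted p = 0.0477). It was lost in 11 of 16 other settings, including every library left out except knockdown replicate 2, with values of 0.0916, 0.195 and 0.162 without control replicates 1, 2 and 3 and 0.144 and 0.129 without knockdown replicates 1 and 3. TGFBR2 was 28.8, 28.8 and 27.9 CPM against 37.0, 33.3 and 37.0, apart but short of the threshold (0.33 ± 0.09; adjusted p = 0.0567). It passed without knockdown replicate 2 (0.00509), with DESeq2 (0.0214), with a filter of 1 CPM in 3 libraries (0.0497) and on FPKM (0.0436 to 0.0464). In the other settings it did not pass, with values up to 0.188. The 3 receptors of THP-1 were thus each higher in every library labelled knockdown than in any control. Of all genes tested in THP-1, 35.6% had groups that did not overlap, in either direction. TGFB1 (101.9 and 97.2 CPM; adjusted p = 0.705) and TGFB3 (3.24 and 2.57 CPM; 0.207) did not pass, and INHBA was not tested. Fibroblast markers summed to 6.94 to 13.7 CPM in the controls and 18.5 to 24.9 in the libraries labelled knockdown. Of them 1 of 10 tested was higher, where 6.30% of all genes were, and POSTN was at 0 in both arms. The largest step of 1 marker was that of FAP, from 0.199 to 0.355 CPM in the controls to 7.37 to 8.25 in the libraries labelled knockdown.

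Across lines, the average difference in the 24-library model passed as higher for 7 members and as lower for TGFB1, where 50.1% of 16797 genes passed, 28.9% higher and 21.2% lower. TGFBR2 averaged 0.82 ± 0.08 (adjusted p = 3.48e-08), TGFBI 0.80 ± 0.12 (1.71e-05) and TGFBR3 0.39 ± 0.05 (9.78e-07). TGFB2 and TGFB3 both averaged 0.34, SMAD7 0.26, and TGFB1 -0.18 ± 0.03 (8.68e-05). Each line weighs the same in these averages, also where few counts lay behind its difference. This was so in K562 for TGFBI (18 to 38 estimated counts in the controls) and TGFBR2 (42 to 63). It was also so for TGFB2 in K562 and THP-1 (32 to 63). The TGFBR3 difference was largest in H1299. TGFBR1 averaged 0.03 ± 0.02 (0.367), with the opposite directions of K562 and THP-1 inside it, and passed on FPKM (0.0128 to 0.0248). INHBA averaged 3.88 ± 1.02, a fitted value set by counts at 0, and this call was lost (adjusted p = 0.999975) without THP-1 knockdown replicate 2, the only THP-1 library with INHBA counts. The averages hide differences between lines, because the interaction of line and label passed for 8 of the 9 members, where 64.9% of all genes passed. INHBA was the exception (adjusted p = 0.425).

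TGFBI showed the contrast between lines most plainly, since it passed in all 4, higher in A549, K562 and THP-1 and lower in H1299. TGFB1 was higher in A549 and lower in K562 and, on counts but not on TPM, in H1299. TGFB2 was higher in A549 and THP-1 and lower in H1299, where TPM gave no call. TGFBR2 passed in H1299 and K562, both higher, and was at 0.03 in A549 and 0.33 in THP-1. No member passed in the same direction in all 4 lines.

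Transcript levels were compared for the members with more than 1 listed transcript. TGFB1, TGFBI and INHBA had 1 each. TGFB2 RNA in A549 and H1299 was assigned mainly to transcript NM_003238, with 93.9 ± 2.33% and 88.9 ± 2.34% of TGFB2 TPM in the controls. In K562 that transcript was listed at 0 in all 6 libraries, and in THP-1 in 5 of 6, with TGFB2 there assigned to NM_001135599. TGFBR2 in the K562 controls was likewise assigned to NM_001024847 alone, at 0.250 ± 0.0169 TPM, while NM_003242 carried 72.6 ± 2.99% in A549 controls. The share of the main transcript was compared between arms in 21 gene and line pairs by an exact two-sided permutation test, in which 3 against 3 cannot give less than p = 0.1. The 1 pair that reached this limit was TGFB3 in THP-1, from 71.6 ± 19.4% to 99.1 ± 1.54% for NM_003239 (exact p = 0.1). In K562, knockdown replicate 3 stood apart for TGFBR1, with 21.6 TPM assigned to NM_001130916 against 0.0978 and 0.831 TPM in the other 2. Splits between transcripts of low genes rest on few counts.

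The other genes of the pathway were followed as a list of 84 genes in 5 classes. In A549, 48 of 81 tested were higher and 11 lower, where 27.2% of all genes were higher and 28.4% lower, and their median log2 fold change was 0.40 against 0.01 for all genes. Targets moved most, with 24 of 33 higher and 4 lower. Latency and activation genes, which hold the ligand in the matrix and release it, were higher in 9 of 14 and lower in 1. Activins and their binders were higher in 5 of 9, and SMADs and their regulators were higher in 7 of 18 and lower in 4. The rest were receptors, 3 of 7 higher and 2 lower.

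Genes of the list are named below where they were called, their groups were apart and the higher group averaged at least 5 CPM, up to 3 at each extreme of log2 fold change in a line. In A549 the 3 named as higher were matrix genes. COL1A2, which encodes a type I collagen chain, reached at most 0.0501 CPM in the controls and 13.5 to 83.2 in the libraries labelled knockdown (adjusted p = 0.00390), and the call was lost without control replicate 2 (0.0722). Like INHBA, COL1A2 entered the test only through the libraries labelled knockdown. SPARC, a matrix binding protein, had 3.57 ± 0.521 and 29.1 ± 18.2 CPM (3.03 ± 0.72; 0.0251), and COL1A1, the other chain, had 18.6 ± 0.384 and 103.1 ± 53.9 CPM (2.48 ± 0.54; 0.0195). Both calls were lost without any 1 library other than knockdown replicate 1, at 0.0678 to 0.0926 for SPARC and at 0.0568 to 0.0749 for COL1A1. COL1A1 and COL1A2, with FBN1 and POSTN, are also on the fibroblast marker list, whose sum was 158.6 to 455.7 CPM in these libraries against 65.4 to 66.8 in the controls. Those named as lower were MYC, a growth gene that the pathway represses in epithelial cells, at 181.5 ± 4.72 and 120.4 ± 5.99 CPM (-0.59 ± 0.04; adjusted p = 7.36e-08), the receptor ACVR2A and the pseudoreceptor BAMBI. ACVR2A had 11.9 ± 1.16 and 9.07 ± 1.54 CPM (0.0165) and was lost without control replicate 1 (0.0718), knockdown replicate 1 (0.0598) or knockdown replicate 2 (0.0667). BAMBI had 97.2 ± 1.38 and 76.2 ± 1.33 CPM (2.69e-06) and was lost with all 24 libraries in 1 fit (0.199).

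In H1299, 35 of 78 tested list genes were higher and 24 lower, with a median of 0.22, where 33.4% of all genes were higher and 35.5% lower. Latency and activation genes were 8 of 14 higher and 4 lower, and the targets were 11 of 32 higher and 12 lower, near the shares of all genes. Those named by the same rule as higher were ITGB8, an integrin that activates latent ligand, with 1.47 ± 0.0664 and 5.40 ± 0.206 CPM (1.88 ± 0.13; adjusted p = 9.89e-08), the proteoglycan VCAN (1.75 ± 0.08) and the transcription factor ZEB2 (1.72 ± 0.05). Those named as lower were ID1, an inhibitor of differentiation factors, with 292.4 ± 4.07 and 49.6 ± 3.56 CPM (-2.56 ± 0.05; adjusted p = 5.78e-11), THBS1, which activates latent ligand (-1.79 ± 0.06), and the matricellular gene CYR61 (-1.71 ± 0.03). On the TPM scale 12 of the list were lower in place of 24. The shares of all genes do not allow for transcript length, which log2 fold changes in H1299 followed. The part of length in the list differences was not tested.

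In K562, 24 of 75 tested list genes were higher and 24 lower, with a median of -0.00. These counts lie near the shares of all genes, 28.9% higher and 27.5% lower. INHBE, an activin subunit of the same family as INHBA, was 4.65 ± 0.502 and 63.1 ± 1.16 CPM (3.76 ± 0.08; adjusted p = 5.06e-10). LTBP1, which tethers latent ligand, was 12.5 ± 0.418 and 36.8 ± 0.843 CPM (1.56 ± 0.06; 1.65e-08). COL1A1 was 1.24 ± 1.34 and 13.3 ± 7.67 CPM (0.0463), and that call was lost without any 1 library other than control replicate 3, at 0.0795 to 0.125. BAMBI was 24.8 ± 1.03 and 12.6 ± 0.311 CPM (-0.98 ± 0.06; 8.12e-07). THBS1 was 13.7 ± 0.198 and 7.74 ± 2.92 CPM (0.0475), a call lost without any 1 library other than knockdown replicate 3, at 0.0527 to 0.152.

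In THP-1, 10 of 73 tested list genes were higher and 3 lower, with a median of 0.17 against 0.01 for all genes. Of all genes 6.30% were higher and 3.93% lower. TGM2, a matrix cross-linking enzyme, was 1.91 ± 0.543 and 6.17 ± 0.938 CPM (1.69 ± 0.23; adjusted p = 0.00429), and ID1 was 2.49 ± 0.211 and 5.45 ± 1.19 CPM (1.13 ± 0.19; 0.00951). The ID1 call was lost without control replicate 1 (0.0591) or 2 (0.0541). TIMP3, an inhibitor of matrix proteases, was 151.6 ± 3.87 and 103.3 ± 1.91 CPM (-0.55 ± 0.08; 0.00507), a call lost with all 24 libraries in 1 fit (0.226). LTBP4 was 27.9 ± 2.09 and 20.6 ± 1.37 CPM (0.0337) and was lost without any 1 library other than knockdown replicate 2, at 0.0886 to 0.115. Without knockdown replicate 2 the counts for the list were 22 higher and 9 lower, and without control replicate 2 they were 6 and 1. Without control replicate 1 or 3, or knockdown replicate 1, 1 was lower.

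**Figure D5:**
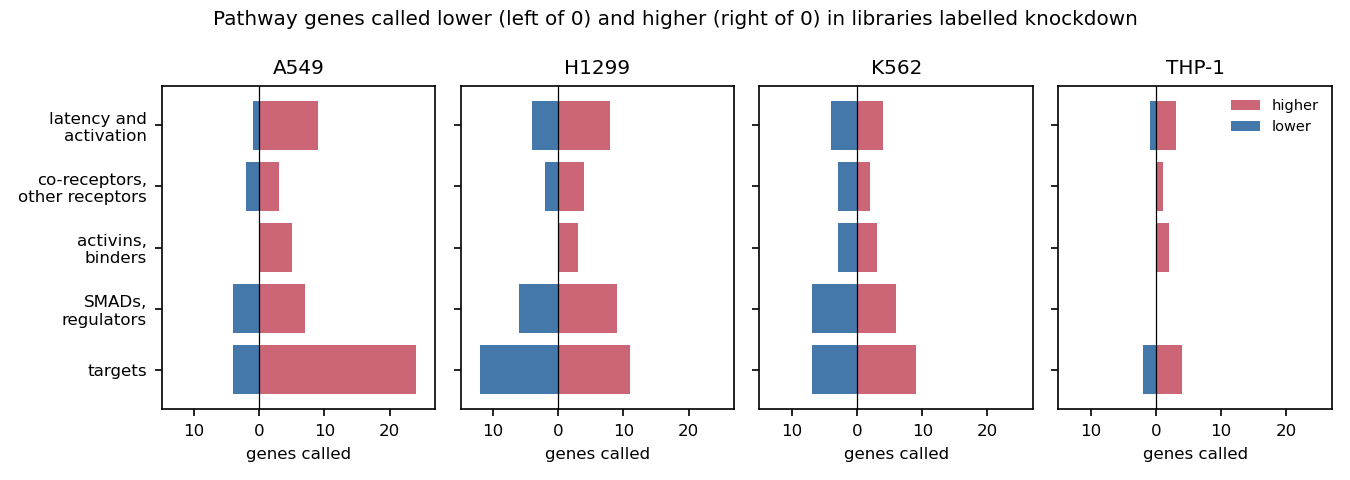
Number of pathway genes called lower (blue, left of 0) and higher (red, right of 0) in each line, by class. In A549 24 targets were higher and 4 lower, in H1299 11 and 12, in K562 9 and 7 and in THP-1 4 and 2.

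Of the 67 list genes tested in all 4 lines, 4 were higher in each, CDKN1A, GDF15, LTBP1 and MMP2, where 0.550% of the 12191 genes tested in all 4 lines were. CDKN1A, the cell cycle inhibitor p21, had log2 fold changes of 1.11 ± 0.04 (A549), 0.27 ± 0.04 (H1299), 0.53 ± 0.07 (K562) and 1.31 ± 0.10 (THP-1), and was called in every setting tried. GDF15, a stress-induced member of the ligand family, had 0.64 ± 0.07, 0.78 ± 0.15, 1.14 ± 0.10 and 2.36 ± 0.53. LTBP1 had 0.50 ± 0.05, 1.05 ± 0.08, 1.56 ± 0.06 and 1.43 ± 0.30. In THP-1, where both genes were at a few CPM or less, GDF15 was lost without control replicate 2 (0.0620) or 3 (0.117) or knockdown replicate 1 (0.0726) or 3 (0.0823). LTBP1 there was lost without control replicates 1, 2 or 3 (0.0908, 0.0998 and 0.0807) and without knockdown replicates 1 or 3 (0.0780 and 0.0620). MMP2, a matrix protease, had 0.67 ± 0.08 in A549, 0.22 ± 0.04 in H1299 and 0.63 ± 0.09 in THP-1. In K562 it was at 0 in all controls and at 0.500 to 1.68 CPM in the libraries labelled knockdown. MMP2 thus entered the K562 test only through those libraries. In 1 fit of all 24 libraries MMP2 was lost in H1299 (0.361) and THP-1 (0.0591).

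The genes whose level was most like that of each member across the 24 libraries were found by Pearson's r of log2 CPM, which follows the line differences above all. They were TIMP1 for TGFB1 (0.98), AJUBA for TGFB2 (0.99), PPP1R2 for TGFB3 (0.96), CXCL8 for TGFBR1 (0.98) and BICC1 for TGFBR2 (0.99). For TGFBR3 it was POTEE (0.97), for TGFBI PTGR1 (0.99), for SMAD7 TCTN3 (0.96) and for INHBA WFDC1 (0.84). Among the second genes, SMAD7 had TGFBI (0.95). These values rest on 4 lines, whose libraries share their line, and describe the order of levels only.

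In the GENCODE annotation of GRCh38, whose coordinates differ from those of the build hg19 used for the files, TGFB1 lies on the minus strand of chromosome 19 at 41301587 to 41353911, TGFB2 on the plus strand of chromosome 1 at 218346235 to 218444619 and TGFB3 on the minus strand of chromosome 14 at 75958099 to 75982991. TGFBR1 (chromosome 9, 99104038 to 99154192) and TGFBR2 (chromosome 3, 30606502 to 30694142) are on plus strands and TGFBR3 (chromosome 1, 91680343 to 91906335) on a minus strand. TGFBI is on chromosome 5 at 136028895 to 136063818 (plus), SMAD7 on chromosome 18 at 48919853 to 48952052 (minus) and INHBA on chromosome 7 at 41667168 to 41705834 (minus). Exons of TGFB2 overlap TGFB2-OT1 on the same strand and those of TGFB3 overlap TGFB3-AS1 on the opposite one. No source used here says whether strand was used in counting, so reads of TGFB3 and its antisense gene cannot be told apart.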

How the data were processed

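Per the file headers, the deposited gene table gives estimated counts and FPKM, and the deposited transcript table gives TPM. The submitters' processing notes list HISAT2, StringTie and the human build hg19, with no version, and no source used here says which options the authors chose. The estimated counts that the authors deposited were rounded to whole numbers. They were then fitted with edgeR 4.0.16 (R 4.3.3; TMM factors, filterByExpr, robust dispersion), once per line and once over 24 libraries with 8 group means, the latter for averages, the interaction and contrasts of controls. All p-values from it are quasi-likelihood and were Benjamini-Hochberg adjusted over every gene tested, with 0.05 as threshold. Alternatives were DESeq2 1.42.0, other filters, limma 3.58.1 on log2 of the deposited FPKM or TPM plus a pseudocount, and each library left out. Marker sums are CPM of total counts. Members get values in every group. From the pathway list, per line, up to 3 called genes at each extreme of log2 fold change are named, if their groups were apart and the higher one averaged 5 CPM or more, plus any called alike in all 4 lines. 1 gene that this rule names is not reported here. The members, lists and markers were chosen with earlier results of these data known. The fits were also run on simulated counts with far fewer changed genes than were called in any line. That run therefore does not test the fits where most genes change.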

Additional observations from a re-analysis of the deposited data

Results flagged for a closer look

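The difference between the libraries labelled knockdown and control itself differed between the 4 lines for 8 of the 9 genes, by the interaction term of the edgeR quasi-likelihood model of 24 libraries (Benjamini-Hochberg adjusted p), where 64.9% of all genes tested also passed. Among the ligands the adjusted p was 4.69e-08 for TGFB1, 3.63e-09 for TGFB2 and 0.00673 for TGFB3. Among the receptors it was 3.19e-10 for TGFBR1, 7.21e-06 for TGFBR2 and 3.89e-08 for TGFBR3. For the target TGFBI it was 7.03e-07, and for the feedback gene SMAD7 0.00672. All 8 passed with each library left out in turn. The interaction was fitted on counts and on FPKM but not on TPM, where TGFB1 (0.05) and SMAD7 (0.10) in H1299 turned to just above 0. The share of members that passed is to be read against the share of all genes.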

How the results depend on the processing

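Counts of calls moved by more than 1.5 times under these settings. With a change of at least 2-fold also required, the members higher were 1 in A549, 1 in THP-1 and 1 on average over lines, the members lower were 1 in H1299, 0 in K562 and 0 on average, and the pathway list gave 15 higher and 0 lower in A549, 15 and 6 in H1299, 11 and 2 in K562 and 6 and 0 in THP-1. With an adjusted p under 0.01, list genes lower were 15 in K562 and 1 in THP-1, and THP-1 members higher 3. With all 24 libraries in one fit, list genes lower numbered 5 (A549), 15 (H1299), 13 (K562) and 9 (THP-1, with 19 higher). With limma on FPKM, under either pseudocount, A549 list genes lower were 7 (7 without a filter), K562 members higher 0 and K562 list genes lower 15. In K562 TGFB3, TGFBR2 and TGFBI did not reach the filter of 1 FPKM in 3 libraries, so they were not tested there. With limma on TPM, chosen after seeing the data, A549 list genes lower were 7, H1299 members lower 1 and list genes lower 12, K562 members higher 1, THP-1 members higher 3 and list genes lower 1. TGFBR2 and TGFBI in K562 and TGFB2 in THP-1 did not reach the same filter on TPM and were not tested. DESeq2 gave 6 list genes lower in THP-1. The cause of the other moves was not tested.

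Leaving out 1 library at a time moved A549 members lower between 0 and 1, THP-1 members higher between 2 and 6, THP-1 list genes higher between 6 and 22 and lower between 1 and 9. Replicate numbers did not pair the libraries: correlations of same-numbered deviations ran from -0.0419 to 0.0329, none over 0.1, and in K562 alone did every number correlate best with its own. The replicate block gave 1 THP-1 list gene lower, and with it K562 TGFBR3 (adjusted p = 0.0816), THP-1 TGFBR3 (0.120) and LTBP4 (0.0745), and A549 SPARC (0.128) and COL1A1 (0.0833) did not pass.

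Values that changed sign were close to 0 in at least one setting. TGFB3 between A549 and K562 controls was -0.0102 on log2(FPKM + 1), with and without a filter, and -0.0368 with the smaller pseudocount. With 1 library left out it ran from -0.0439 (without A549 control replicate 1) to 0.252. INHBA between H1299 and THP-1 controls, at 0 counts in both, was 0.0642 with the replicate block. In A549, TGFBR1 was -0.00105 with no filter, -0.0162 with knockdown replicate 1 alone (a setting chosen after seeing the data, whose spread comes from the 3 controls alone), and between -0.00670 and 0.00553 with 1 library left out. TGFBR2 there was -0.00662 with knockdown replicate 1 alone. TGFBR3 was 0.0268 on log2(FPKM + 1), with and without a filter, 0.0372 with the smaller pseudocount, 0.0521 on TPM, and from -0.19 to 0.0635 with 1 library left out. On TPM TGFB1 and SMAD7 in H1299 were 0.0540 and 0.0973, and TGFB1 in THP-1 ran from -0.13 to 0.0141 with 1 library left out. Depth limits INHBA in every line, TGFB2, TGFBR2 and TGFBI in K562, and TGFB2 in THP-1.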
